A study of Rattus norvegicus with 7 samples.

Results

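The members described here are 185 annotated features of the spliceosomal small nuclear RNAs (snRNAs) and the small Cajal body-specific RNAs (scaRNAs), of 5491 noncoding RNA features in the deposited table of the developing Wistar rat retina (3.37%). They were chosen by their annotation and by a measured value: a gene biotype of snRNA or scaRNA, and a level above 0 at all 7 ages. Of 226 features with these biotypes, 185 met the rule, 168 of them snRNAs and 17 scaRNAs. By the U type in the gene symbol they were 51 of 55 U1, 29 of 33 U2, 9 of 12 U4, 11 of 12 U5, 47 of 74 U6, 18 of 19 minor U types, 3 of 3 U7 and 17 of 18 scaRNA features. The minor U types were 5 U11, 4 U12, 1 U4atac and 8 U6atac features. The 185 features lay in 184 genes, since 1 U2 gene on chromosome 20 held 2 features. U7 carries the snRNA biotype but is no part of the spliceosome, so its 3 features are described apart.

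Retinas of untreated Wistar WU rats were taken in the first week (P1, P3, P5 and P7, where P is the postnatal day) and later (P10, P15 and P21), from animals kept under equal periods of light and dark. RNA of 3 retinas per age was pooled, enriched for small RNAs and sequenced on an Ion Torrent PGM. The table holds 1 value per feature and age, in FPKM (nominally fragments per kilobase of feature and 1000000 mapped fragments). There was thus no spread between animals at any age, no test of one age against another was possible, no trend over the ages was tested, and each difference below compares 2 libraries, not ages. Whole retina was used, so fewer cells of a type and less RNA per cell cannot be told apart.

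snRNAs are the RNA core of the spliceosome, the machine that removes introns from pre-mRNA. U1 pairs with the upstream splice site and U2 with the branch point, after which U4, U5 and U6 join as a tri-snRNP. U6 then replaces U1 at the splice site while U4 leaves, and U5 holds the exon ends together. U11, U12, U4atac and U6atac do the work of U1, U2, U4 and U6 for a small class of introns, and both machines share U5. U7 guides the cut at the end of histone pre-mRNAs. scaRNAs stay in Cajal bodies, where they guide the methylation and pseudouridylation of the snRNAs. U6 and U6atac are transcribed by RNA polymerase III and the other U types by RNA polymerase II. In the study, U6 snRNA also served as the endogenous control of the miRNA RT-qPCR.

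scaRNAs can also be cut into shorter RNAs, and the RefSeq tables (build GRCr8) held a sequence for 2 of 17 scaRNA members, Scarna15 and Scarna3, as hairpins that carry mature miRNAs. The mature RNAs are shown because a small-RNA library could read them from these members, as it could the scaRNAs themselves. Capitals mark the seed, bases 2 to 8. The Scarna15 hairpin is 64 bases on the plus strand of chr1:144893856-144893919, and the Scarna3 hairpin 90 bases on the minus strand of chr6:104955347-104955436.
rno-miR-1839-5p of Scarna15: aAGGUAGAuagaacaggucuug
rno-miR-1839-3p of Scarna15: aGACCUACuuaucuaccaacag
rno-miR-1843a-5p of Scarna3: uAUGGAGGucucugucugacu
rno-miR-1843a-3p of Scarna3: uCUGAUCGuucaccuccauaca
The 4 seeds differed. Other loci carry the same symbols in capitals, SCARNA15 on chromosome 2 and SCARNA3 on chromosome 13, and are kept apart by their Ensembl identifiers.

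The libraries differed in depth and in composition. From the steps between low FPKM values, 297465 (P1) to 1666817 (P21) alignments were estimated per age, with those from P3 to P15 between 414811 and 595852. The share of these alignments in snoRNAs was 34.3% at P3, 2.05% at P1 and 4.50% to 9.39% at the other ages, and miRNAs held 39.1% at P3 against 58.0% to 74.2% elsewhere. The photoreceptor miRNA list (2 loci found) and the neuronal list (3 loci) were above 0 at every age, at 7214 to 42486 and 49176 to 344211 APM, the estimated alignments per 1000000 of the library. The 3 muscle miRNA loci summed to 635 and 622 APM at P3 and P5 and to 34.1 to 97.5 at the other ages, and the 2 blood loci to 19.5 to 148. The 2 pigment epithelium loci summed to 13820 to 43396 APM. None of the listed loci was at 0 in any library. The part of these shifts in the values below was not tested.

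The length of a feature set the scale of its FPKM. The feature is the stretch of the transcript in the table, and it spanned 10 to 414 bases among the members. In 129 of 185 members it covered 80% to 110% of the annotated gene, called near full length here. In 13 members it was under 40 bases, 9 of them U6, 2 U1, 1 U2 and 1 U4, and a handful of reads there gave very high FPKM values. ENSRNOG00000057841.1, a U1 gene at chr2:112668959-112669102, had a feature of 12 bases. Its FPKM were 451844 at P1, 88935 at P3 and 250198 at P5, then 76442 at P7 and 45265 at P10, and 58379 at P15 and 8898 at P21. Behind these values stood 28 estimated alignments at P1 and 1.86 at P21. At P1 the 2 short U1 features took 91.0% of the summed U1 FPKM from 2.51% of the U1 alignments, and the 9 short U6 features took 97.1% of the U6 sum from 19.2% of its alignments. For this reason the levels of a whole type are given in APM, and FPKM for single loci of similar length. The 2 scales also differ by library. Between P1 and P21 the median log2 difference of all features above 0 at all ages was 0.23 in FPKM and 0.96 in APM. The deposited FPKM thus carry a library scaling other than the estimated alignments, and differences in FPKM and in APM are not interchangeable.

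**Figure D1:**
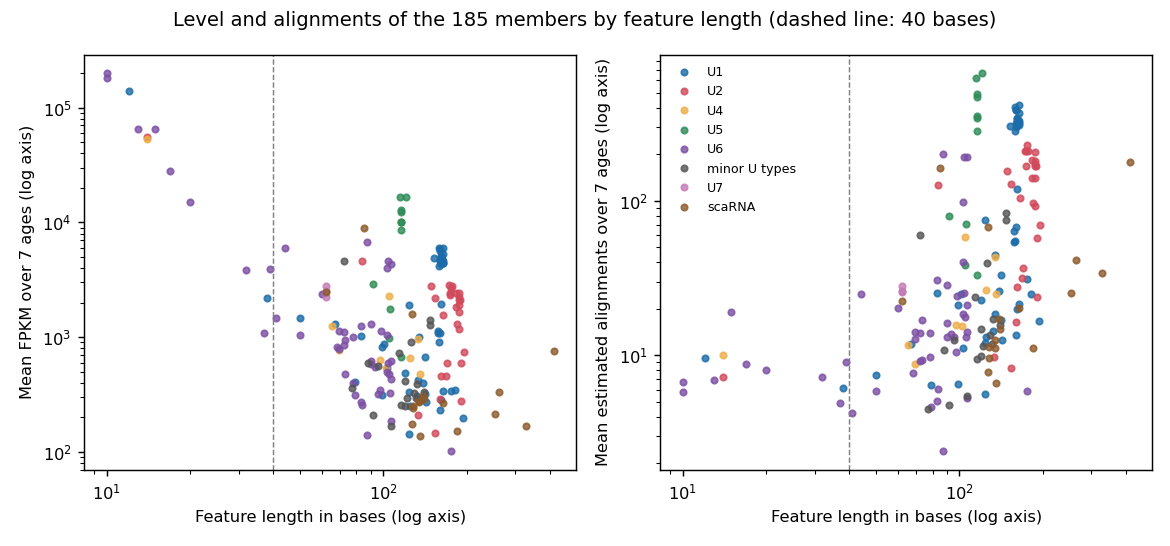
Each point is 1 of the 185 members, by feature length in bases (log axis) against its mean FPKM (left, log axis) and its mean estimated alignments (right, log axis) over the 7 ages, coloured by RNA type. Left of the dashed line at 40 bases, 13 features have high FPKM but few alignments, while U5 near 116 bases and U1 near 159 bases stand highest by alignments.

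The features of a U type are annotated copies that may share reads, but their sequence identity was not computed. How reads matching several copies were counted was not given in the sources used here. The split between copies is therefore uncertain, and the intervals printed below in parentheses are approximate 95% counting intervals. They cover counting error only, not animals, and PCR copies are not independent molecules.

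All members together took 1.32% of the estimated alignments at P1, 3.64% at P3, 2.19% at P5 and 3.00% at P7, then 1.87%, 2.28% and 2.84% in the P10, P15 and P21 libraries. The share was lowest at P1 and highest at P3. By single members, 107 of 185 (57.8%) were at least 2-fold lower at P1 than at P21 on the log2(FPKM + 1) scale, where 23.6% of the 4736 features above 0 at all ages were. Another 34 members (18.4%) were at least 2-fold higher at P1, against 32.6% of all those features. The median difference of the members was -1.45 on the log2 scale, and that of all features 0.23. At P3, 53 members (28.6%) were at least 2-fold higher than at P21 against 26.2% of all features, and 33 (17.8%) lower against 19% of all features, shares near the background. At P15, 84 members (45.4%) were at least 2-fold lower than at P21 against 21.8% of all features, and 17 (9.19%) higher against 13.7%. Scaled to the summed miRNA level of each library, the counts were 44 higher and 84 lower at P1, 101 higher and 20 lower at P3, and 27 higher and 63 lower at P15, while the median of all features moved to 0.84, 1.00 and 0.34. On that scale 46.4% of all features were higher and 15.2% lower at P1, 50.0% and 7.96% at P3, and 25.3% and 13% at P15, so that the 54.6% of members higher at P3 stood near the background. In APM, 46 members were higher and 82 lower at P1, where 49.1% of all features were higher and 14.0% lower, with a median of all features of 0.96. Relative to that of all features, the median of the members at P1 was lower on each of these scales, at -0.82 and -0.72. Thus, in FPKM as deposited, the members stood lower than at P21 more often than other features in the P1 and P15 libraries, and about as often in the P3 library.

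**Figure D2:**
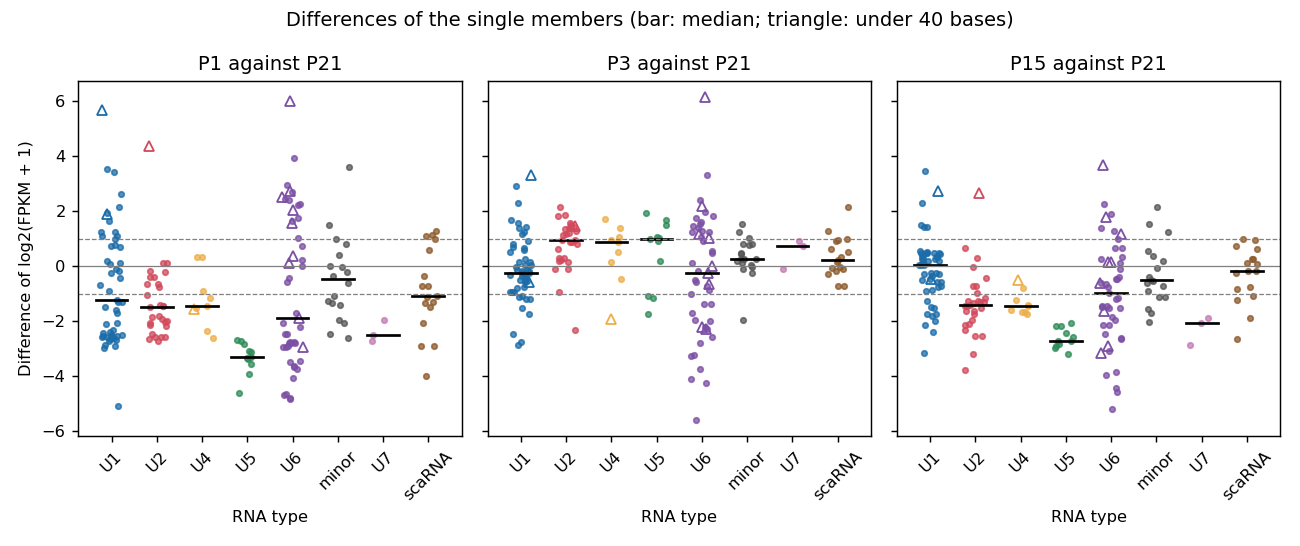
Differences of log2(FPKM + 1) between P1, P3 or P15 and P21 for each member, by RNA type. Points are members, open triangles features under 40 bases, bars medians, and dashed lines mark 2-fold. All 11 U5 members lie below the lower dashed line at P1 and at P15, while the triangles of U1, U2 and U6 reach far above the rest at P1.

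U1, the RNA that first meets the upstream splice site, was the most sequenced type at 6 of 7 ages. Its members summed to 5490 APM at P1 (5230 to 5763), 8409 at P3 and 10692 at P5, then 14743 at P7 and 8774 at P10, and 16505 at P15 (15976 to 17052) and 11142 at P21 (10982 to 11304). The level was lowest at P1 and highest at P15. Of the 51 members, 21 had their highest FPKM at P15 (41.2%), where 12.2% of all features had theirs. The high P15 level lay in a set of 18 loci with over 200 mean alignments each, a limit set after the values were seen, on 9 chromosomes or scaffolds. These 18 had 283 to 414 mean alignments and the next locus 120.

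All 18 abundant U1 loci were lowest at P1 and highest at P15. Their FPKM at P1 ran from 810 to 3036 with a median of 1019, at P3 from 2612 to 6714 with a median of 4915, and at P7 from 4620 to 6516 with a median of 5410. At P15 they ran from 6948 to 8829 with a median of 7771, and at P21 from 5136 to 7986 with a median of 6147. Single loci were 2.78 to 10.1 times as high at P15 as at P1. The 18 loci may share reads and each age is 1 library, so they are not 18 separate measurements. ENSRNOG00000054419.1 (chr6:75614240-75614403, plus strand) was the most sequenced, at 3036, 6714, 5456 and 6104 FPKM at P1, P3, P5 and P7, and 4764, 8429 and 7468 FPKM at P10, P15 and P21. Its P1 value was the highest of the abundant loci, and its difference from P21 the smallest, at -1.30 on the log2 scale (-1.56 to -1.04). ENSRNOG00000061201.1 (chr6:75622796-75622959, minus strand) followed at 1864 FPKM at P1, 6441 at P3 and 6179 at P5, then 6135 at P7 and 4761 at P10, and 8829 at P15 and 7986 at P21, a difference of -2.10 between P1 and P21 (-2.43 to -1.77). Both lie in a group of 5 U1 genes on chromosome 6 within 50000 bases of each other, all 5 of them abundant.

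The other 33 U1 loci followed no common course. They were highest at P1 in 10 cases, as were 25.5% of all features. Another 6 each were highest at P3 and at P21, 5 at P7 and 3 at P15. Their share of the U1 alignments was 42.9% at P1, 16.4% at P3, 14.4% at P7, 6.25% at P15 and 10.7% at P21. Of the 33 loci, 12 were at least 2-fold higher and 8 at least 2-fold lower at P1 than at P21, against 0 and 18 of the abundant loci. Of all features, 32.6% were higher and 23.6% lower, so these 33 stood near the background. ENSRNOG00000057331.1 (chr9:9954345-9954508) went the opposite way to the abundant copies, at 3069 FPKM at P1, 918 (P3), 1552 (P5), 902 (P7), 697 (P10), 222 (P15) and, by P21, 288. Its difference of 3.41 on the log2 scale between P1 and P21 (2.90 to 3.92) was the second largest in this direction among the 102 members with at least 20 mean alignments. ENSRNOG00000057348.1 (chr16:18469754-18469918) had the largest difference the other way, from 83.6 FPKM at P1 to 2892 at P21, with 861 at P3 and 1002 at P5, then 872 at P7 and 855 at P10, and 555 at P15. It rested on 1 alignment at P1, so that its difference of -5.10 had a wide interval (-7.94 to -2.26). It also reached 20 mean alignments through P21 alone, with 117 there and a mean of 10.0 over the other ages.

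U2, which pairs with the branch point, was highest at P3. Its 29 members summed to 2851, 9837, 5288 and 6269 APM at P1, P3, P5 and P7, and 3601, 2095 and 5622 APM at P10, P15 and P21. The P3 sum was 3.45 times that of P1 (3.21 to 3.71), and the P15 sum 0.735 times that of P1 (0.656 to 0.823). In APM, U2 was thus at its lowest level in the library where U1 was at its highest. This depended on the scale. In FPKM over near-full-length features, P15 differed from P1 by 0.04 on the log2 scale (-0.13 to 0.21). By FPKM, 14 of the 29 members were lowest at P1 and 9 at P15. P3 was the highest age for 23 of 29 members (79.3%), against 12.1% of all features. Of the 19 U2 loci with over 85 mean alignments, again a limit set afterwards, 15 also passed it without P21. Of all 19, 18 were highest at P3 and 1 at P21, and 13 were lowest at P1 and 6 at P15. Their median FPKM was 668 at P1, 5422 at P3 and 2045 at P5, then 2062 at P7 and 1559 at P10, and 704 at P15 and 2427 at P21.

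ENSRNOG00000054184.1 (chr9:79560083-79560273) is an example with a feature of 173 bases. It had 952 FPKM at P1, 5378 (P3), 3584 (P5), 2943 (P7), 2299 (P10), 1105 (P15) and, by P21, 3462, so that P1 and P15 stood together well below the rest. The exception among the abundant loci was ENSRNOG00000052760.1 (chr20:32094624-32094813), whose 2 features moved apart. The 84-base feature, transcript bases 27 to 110, had 2364, 2839, 1728 and 7302 FPKM at P1, P3, P5 and P7, and 2576, 1045 and 14271 FPKM at P10, P15 and P21. The 14-base feature near the other end, bases 177 to 190, had 207171 FPKM at P1, 27365 at P3 and 30432 at P5, then 16316 at P7 and 37741 at P10, and 62456 at P15 and 10020 at P21. The longer one was highest at P21 on 592 alignments, the shorter one at P1 on 24. The longer one passed the limit for abundant loci through P21 alone, with a mean of 48.2 alignments over the other ages. Its P21 value thus decided its place among them. Of the members, 7 U2 genes lay on chromosome 10 and 4 on chromosome 9, the latter all within 50000 bases of each other.

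**Figure D3:**
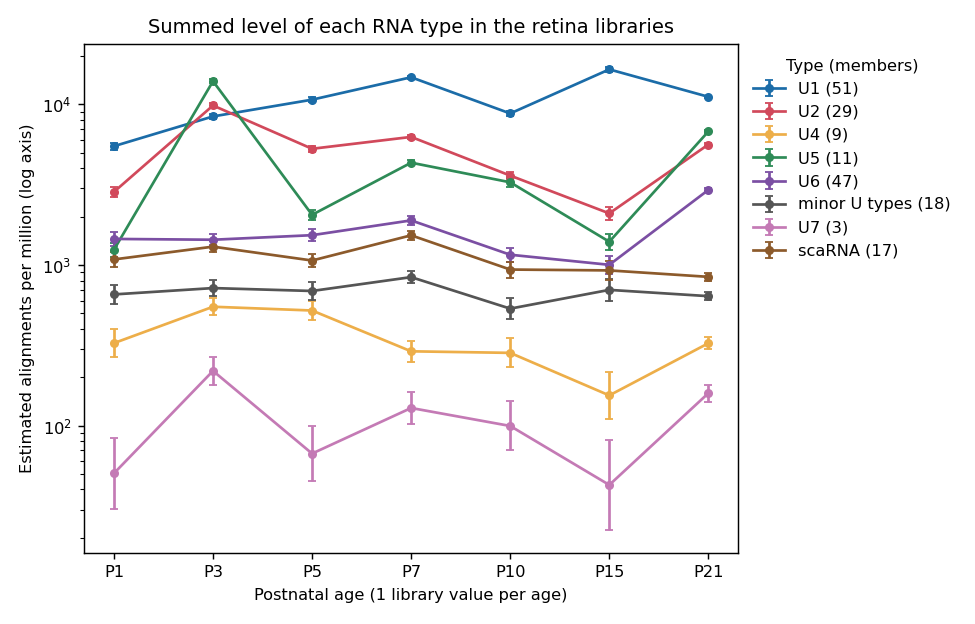
APM (log axis) summed over the members of each RNA type at each age, with approximate 95% counting intervals as bars and 1 library value per age. U5 spans 1244 at P1 to 13936 at P3, U1 is highest at P15, and the minor U types stay between 535 and 840.

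U4 and U6 are paired with each other until the spliceosome is activated, and their levels followed different courses. U4 summed to 326 APM at P1, 549 (P3), 520 (P5), 290 (P7), 284 (P10), 154 (P15) and, by P21, 326, lowest at P15. The P1 sum depended on the rule, since with the 3 U4 features outside it, chiefly ENSRNOG00000058060.1 of 8 bases, the sums were 538 at P1 and 331 at P21. Of the 9 U4 members, 6 were highest at P3 (66.7%), against 12.1% of all features. ENSRNOG00000053251.1 (chr4:175972412-175972613) had the most alignments, with 2383, 3973, 4519 and 736 FPKM at P1, P3, P5 and P7, and 1675, 689 and 1885 FPKM at P10, P15 and P21. Its P1 and P21 values differed by less than the counting interval, at 0.34 on the log2 scale (-0.15 to 0.83). ENSRNOG00000055595.1 (chr17:11278499-11278588) had 1409 FPKM at P1, 3681 at P3 and 1392 at P5, then 334 at P7 and 349 at P10, and 360 at P15 and 1134 at P21, and stood highest at P3 as well. ENSRNOG00000054813.1 (chr5:50651428-50651565), with the highest U4 FPKM, was a 14-base feature on 2.26 to 30.1 alignments. Its FPKM were 25896 at P1, 20524 (P3), 42759 (P5), 52879 (P7), 102194 (P10), 53629 (P15) and, by P21, 76932. Only 4 of the 9 U4 members had a mean of 20 or more alignments.

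U6, the catalytic snRNA, summed to 1452 APM at P1, 1436 at P3 and 1532 at P5, then 1895 at P7 and 1158 at P10, and 1002 at P15 (878 to 1144) and 2932 at P21 (2850 to 3015). The P21 level was above that of every other age and the P1 level 0.495 times as high (0.449 to 0.547). Of the 47 members, 18 were highest at P21 (38.3%), against 15.9% of all features. Most of the P21 level lay in 3 near-full-length loci, which held 7.41% of the U6 alignments at P1, 11.5% at P15 and 59.9% at P21. They were picked, after the values were seen, by a mean of over 150 alignments, which they passed through P21 alone. Their mean over the other 6 ages was 65.4 to 65.8 alignments, so the P21 value itself decided the choice.

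ENSRNOG00000061387.1, on chromosome 9, had 909 FPKM at P1, 4684 at P3 and 6539 at P5, then 6686 at P7 and 4906 at P10, and 620 at P15 and 22876 at P21. ENSRNOG00000053493.1 (chr17:18319689-18319795) had 528 FPKM at P1, 3891 (P3), 5004 (P5), 4045 (P7), 2794 (P10), 1030 (P15) and, by P21, 14976. ENSRNOG00000056250.1 (chr16:51239275-51239381) had 499, 3480, 3954 and 4075 FPKM at P1, P3, P5 and P7, and 3401, 899 and 14018 FPKM at P10, P15 and P21. All 3 were low at P1 and P15, between 2794 and 6686 FPKM from P3 to P10, and far above all other ages at P21. The differences between P1 and P21 were -4.82 (-5.72 to -3.92) for ENSRNOG00000053493.1 and -4.81 (-5.71 to -3.91) for ENSRNOG00000056250.1, the next largest differences with P21 higher among the 102 members with enough alignments. They rested on 10 alignments each at P1 and on 958 and 949 at P21.

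Other U6 copies were lower at P21 than at P1. ENSRNOG00000054232.1 (chr14:14101038-14101144) had 2616 FPKM at P1, 610 at P3 and 879 at P5, then 2181 at P7 and 1050 at P10, and 337 at P15 and 172 at P21, the largest difference in this direction at 3.92 on the log2 scale (2.92 to 4.92). ENSRNOG00000053266.1 (chr3:171596222-171596321) had 2856 FPKM at P1, 2121 (P3), 3082 (P5), 7249 (P7), 575 (P10), 344 (P15) and, by P21, 545, a difference of 2.39 (1.29 to 3.49). Over all 47 U6 members, 15 (31.9%) were at least 2-fold higher at P1 than at P21, a share near the 32.6% of all features, and 25 (53.2%) were at least 2-fold lower, against 23.6%. The 3 with the highest mean FPKM were all short features. ENSRNOG00000055890.1 (chr4:95210125-95210231, 10 bases) ranged from 95333 FPKM at P3 to 444482 at P1. ENSRNOG00000060696.1 (chr16:81030607-81030706, 10 bases) ranged from 41319 at P15 to 525297 at P1. ENSRNOG00000052032.1 (chr18:270841-270947, 15 bases) ranged from 20627 at P7 to 173322 at P21. None of these had over 20 mean alignments.

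U5, which holds the exon ends in both spliceosomes, differed most between libraries. Its 11 members were all near full length and summed to 1244 APM at P1 (1123 to 1377), 13936 at P3 (13594 to 14288) and 2052 at P5, then 4333 at P7 and 3271 at P10, and 1395 at P15 and 6780 at P21 (6655 to 6906). The P3 level was 11.2 times that of P1 (10.1 to 12.4) in APM and 19.5 times in FPKM. All 11 members were at least 2-fold lower than at P21 both at P1 and at P15, against 23.6% and 21.8% of all features. All 11 were also at least 2-fold higher at P3 than at P1, as were 101 of all 185 members. No share of all features was computed for this pair of ages, so the 11 cannot be set against a background there. The copies may share reads, so the 11 are not separate measurements. At P3, U5 and U2 both stood above U1. The snoRNA share of the library was also highest at P3, and the snoRNAs under 100 bases had a median difference of 2.54 on the log2 scale between P3 and P21, against 1.00 for U5, 0.96 for U2 and 0.14 for all features. Whether the changes share a source was not tested.

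**Figure D4:**
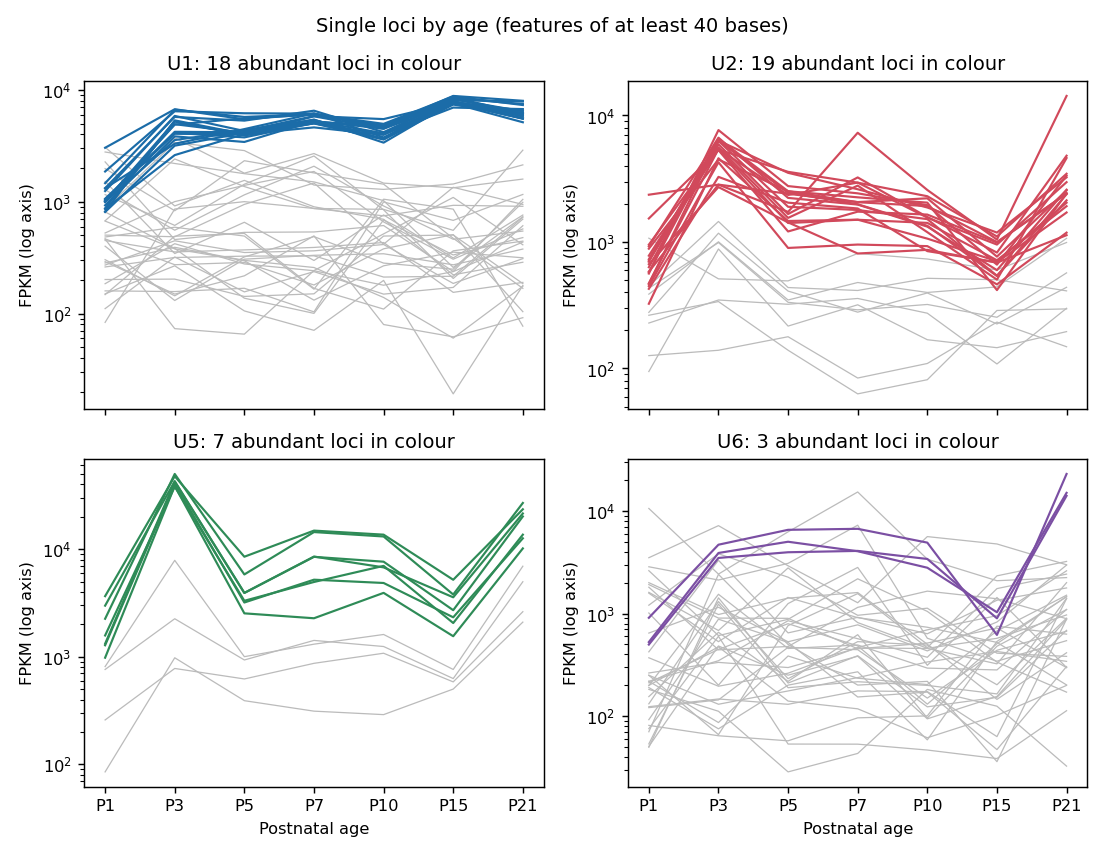
FPKM (log axis) of single U1, U2, U5 and U6 loci by age, for features of at least 40 bases, with the abundant loci of each type in colour and the others in grey. The 18 abundant U1 loci are highest at P15, the 7 abundant U5 loci peak together at P3, and the 3 abundant U6 loci peak at P21.

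The U5 loci fell into 7 abundant ones with over 100 mean alignments, again a limit set after the values were seen, and 4 others. The 7 had 283 to 666 mean alignments and the others 33.3 to 79.6. At P3 the 7 stood at 38181 to 49921 FPKM and the others at 779 to 7869. The P3 alignments count toward the mean, so the high P3 levels of the 7 are not independent of their choice. The 7 were all highest at P3 and all lowest at P1. ENSRNOG00000059272.1 (chr5:136057592-136057707, plus strand) had 3657 FPKM at P1, 47547 at P3 and 8501 at P5, then 14861 at P7 and 13630 at P10, and 5193 at P15 and 23454 at P21. ENSRNOG00000060577.1 (chr8:70702041-70702156, minus strand) had 2254 FPKM at P1, 49921 (P3), 5820 (P5), 14404 (P7), 13104 (P10), 3788 (P15) and, by P21, 26847. ENSRNOG00000057971.1 (chr7:17460906-17461021, plus strand) had 2984, 42808, 3919 and 8526 FPKM at P1, P3, P5 and P7, and 6770, 3570 and 21446 FPKM at P10, P15 and P21. All 3 had the same order at the extremes, with P3 above P21 and both far above P1 and P15. Their differences between P1 and P21 were -2.68 (-2.98 to -2.38), -3.57 (-3.97 to -3.18) and -2.84 (-3.19 to -2.50) on the log2 scale. The loci were not spread evenly: 3 of the abundant genes lay on chromosome 5, the outer ones 13517 bases apart, and 2 on chromosome 8, 3245 bases apart.

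The 4 less abundant U5 loci behaved differently at P3. ENSRNOG00000057937.1 on chromosome 19 was still highest at P3, at 7869 FPKM against 6943 at P21. ENSRNOG00000052749.1, ENSRNOG00000053002.1 and ENSRNOG00000058970.1 had 2256, 779 and 979 FPKM at P3 and 4980, 2623 and 2100 at P21. These 3 were thus highest at P21, with differences between P3 and P21 of -1.14 (-1.63 to -0.66), -1.75 (-2.57 to -0.93) and -1.10 (-1.78 to -0.42), where the 7 abundant loci ranged from 0.89 to 1.92. These loci were picked out after their values were seen.

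The minor spliceosome differed little between libraries when summed in APM. The 18 members summed to 656 APM at P1 (570 to 754), 718 at P3 (643 to 801) and 689 at P5, then 840 at P7 (768 to 918) and 535 at P10 (459 to 622), and 700 at P15 and 639 at P21 (602 to 679). The P7 interval lay above those of P1, P10 and P21, the P10 interval lay below that of P3 as well, and all other pairs overlapped. Overlap does not mean equal levels. The P7 sum was 1.22 times that of P5 (1.05 to 1.42), and the P15 sum 1.31 times that of P10 (1.05 to 1.63). The P1, P3, P5 and P15 sums did not differ from that of P21 beyond counting error. By FPKM, 8 of 18 (44.4%) were at least 2-fold lower at P1 than at P21, against 23.6% of all features. Another 2 (11.1%) were at least 2-fold higher, against 32.6%, and the median difference was -0.48. The most sequenced U6atac locus, ENSRNOG00000060885.1 (chrX:32924619-32924740), had 3725 FPKM at P1, 5620 (P3), 3660 (P5), 3633 (P7), 4797 (P10), 6185 (P15) and, by P21, 4739. Its highest value was 1.70 times its lowest, the smallest range of the 185 members.

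Both leading U12 loci were lower at P1 than at P3 and P21. ENSRNOG00000055594.1 (chr8:69096709-69096859) had 1003, 2148, 1320 and 1053 FPKM at P1, P3, P5 and P7, and 908, 1269 and 2110 FPKM at P10, P15 and P21. ENSRNOG00000054193.1 (chr7:124020864-124021014) had 705 FPKM at P1, 2019 at P3 and 1302 at P5, then 1211 at P7 and 1019 at P10, and 820 at P15 and 1797 at P21. Their P3 and P21 values were the highest, and their differences between P1 and P21 were -1.07 (-1.57 to -0.57) and -1.35 (-1.93 to -0.76). For the 5 U11 members the result depended on the scale. Between P1 and P21 their sum differed by -0.01 in FPKM (-0.52 to 0.51) and by 0.74 in APM (0.23 to 1.25). The medians of all features were 0.23 in FPKM and 0.96 in APM. In APM, U11 ran from 60.8 at P15 to 202 at P7. The single U4atac member, ENSRNOG00000057270.1, ran from 26.4 FPKM at P10 to 574 at P3.

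U7 was also highest at P3, with 50.4 APM at P1, 219 (P3), 66.9 (P5), 129 (P7), 99.4 (P10), 42.7 (P15) and, by P21, 159. The P1 sum (30.4 to 83.6) and the P15 sum (22.5 to 81.1) were not separated by counting error. In summed FPKM P1 was the lower, at 2344 against 2642 at P15. All 3 loci were features of 62 bases that covered the whole gene. ENSRNOG00000056101.1 (chrX:101374879-101374940) had 937, 6934, 1544 and 3028 FPKM at P1, P3, P5 and P7, and 2675, 879 and 3679 FPKM at P10, P15 and P21. ENSRNOG00000053671.1 (chr9:20279628-20279689) had 625 FPKM at P1, 6805 at P3 and 1327 at P5, then 1512 at P7 and 2578 at P10, and 559 at P15 and 4107 at P21. ENSRNOG00000054975.1 (chr4:157265968-157266029) had 781 FPKM at P1, 4210 (P3), 1210 (P5), 2291 (P7), 1553 (P10), 1204 (P15) and, by P21, 4476. Each stood at least 2-fold lower at P1 and at P15 than at P21, as did 23.6% and 21.8% of all features. The P3 sum was 4.34 times that of P1 in APM (2.52 to 7.48), on 15 alignments at P1.

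The scaRNAs, guides of snRNA modification, summed to 1082 APM at P1 (970 to 1207), 1300 at P3 and 1066 at P5, then 1530 at P7 (1432 to 1634) and 936 at P10, and 925 at P15 and 843 at P21 (800 to 889). The sum was thus 1.28 times as high at P1 as at P21 (1.14 to 1.45) in APM. This is 0.36 on the log2 scale, below the median of all features in APM, 0.96. In FPKM the sum was lower at P1, at -1.10. By FPKM, 9 of 17 single members (52.9%) were at least 2-fold lower at P1, against 23.6% of all features. Another 4 (23.5%) were at least 2-fold higher, against 32.6%. The sum rested on SCARNA2 (ENSRNOG00000051850.1, chromosome 2), a guide with a feature of 414 bases. It had 798 FPKM at P1, 681 at P3 and 976 at P5, then 1580 at P7 and 492 at P10, and 390 at P15 and 360 at P21, a difference of 1.15 between P1 and P21 (0.83 to 1.46). SCARNA18 (ENSRNOG00000051481.1, chromosome 18) moved the other way, at 636 FPKM at P1, 24956 (P3), 4767 (P5), 5698 (P7), 10312 (P10), 5657 (P15) and, by P21, 10177. Its P3 value was 39.2 times its P1 value, and its P1 value lay -4.00 from P21 on the log2 scale (-5.01 to -2.99). SCARNA17 (ENSRNOG00000061205.1), 73 bases from SCARNA18 on the same strand, had 354, 168, 199 and 283 FPKM at P1, P3, P5 and P7, and 175, 345 and 176 FPKM at P10, P15 and P21, so that its lowest value, close to those of P10 and P21, was at the age where its neighbour was highest.

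Among the other guides, SCARNA16 on chromosome 14 (ENSRNOG00000057444.1) had 3281 FPKM at P1, 1235 at P3 and 4290 at P5, then 4693 at P7 and 1946 at P10, and 565 at P15 and 1342 at P21, highest in the P1 to P7 libraries other than P3. The larger SCARNA6 feature (ENSRNOG00000053606.1, chromosome 9) was highest at P1, at 554 FPKM, and lowest at P7, at 152, and differed by 1.10 between P1 and P21 (0.60 to 1.61). The smaller SCARNA6 (ENSRNOG00000054529.1), 8085 bases away, ran from 136 at P5 to 413 at P15. Scarna15 (ENSRNOG00000055316.1, chromosome 1), the host of miR-1839, was nearly level, at 1041 FPKM at P1, 2017 (P3), 1364 (P5), 1732 (P7), 1492 (P10), 1813 (P15) and, by P21, 1737. Scarna3 (ENSRNOG00000060868.1, chromosome 6), the host of miR-1843a, had 121, 312, 172 and 280 FPKM at P1, P3, P5 and P7, and 311, 453 and 515 FPKM at P10, P15 and P21, a difference of -2.07 between P1 and P21 (-3.54 to -0.61). Whether the reads of these 2 were mature miRNAs or the whole scaRNA cannot be told apart from the table.

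SCARNA1 (ENSRNOG00000057829.1, chromosome 5) had 68.0 FPKM at P1, 449 at P3 and 224 at P5, then 161 at P7 and 352 at P10, and 81.1 at P15 and 511 at P21, and SCARNA14 (ENSRNOG00000059039.1, chromosome 8) 64.1 at P1, 736 at P3 and 98.3 at P15, so that both were low at P1 and at P15. SCARNA3 on chromosome 13 (ENSRNOG00000053634.1) ran from 150 at P1 to 448 at P15. The SCARNA7 loci ENSRNOG00000056138.1 and ENSRNOG00000053927.1 ranged from 98.0 to 354 and from 121 to 262. SCARNA4 (ENSRNOG00000055118.1) and SCARNA15 on chromosome 2 (ENSRNOG00000052910.1) overlap by 127 bases on the same strand, so that their reads cannot be separated, and had 75.1 to 392 and 35.9 to 425 FPKM.

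**Figure D5:**
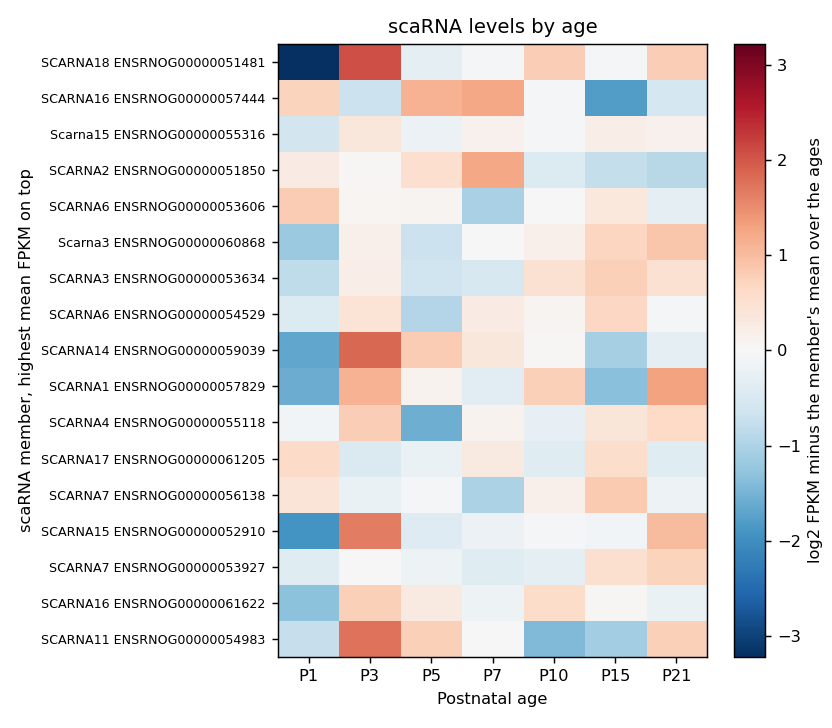
log2 FPKM of the 17 scaRNA members at each age, relative to each member's mean over the 7 ages, with red above and blue below it. Rows run from the highest mean FPKM on top. SCARNA18 is bluest at P1 and reddest at P3, SCARNA2 is highest at P7, and Scarna15 is nearly level.

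On the scale of summed FPKM, the types compared as follows between P1 and P21: 1.79 for U1 (1.29 to 2.29), 1.57 for U2 (1.00 to 2.13), -1.44 for U4 (-2.87 to -0.00), -3.18 for U5 (-3.33 to -3.03), 1.11 for U6 (0.57 to 1.65), -0.43 for the minor U types (-0.69 to -0.17) and -1.10 for the scaRNAs (-1.41 to -0.80), each as a log2 difference. The positive values of U1, U2 and U6 came from short features. Over near-full-length features alone the differences were -1.83, -1.74, -1.54, -3.18, -2.54, -1.04 and -1.78 in the same order, all lower at P1. Between P3 and P21 the summed FPKM differed by 0.45 for U1, 0.80 for U2, -1.23 for U4, 1.11 for U5, -0.47 for U6, 0.28 for the minor U types and 0.95 for the scaRNAs. Over near-full-length features alone the direction turned for U1, at -0.30, and for U4, at 0.93, as it did in APM, at -0.41 and 0.75. The near-full-length values of U2, U5, U6, the minor U types and the scaRNAs, at 0.98, 1.11, -1.03, 0.25 and 1.02, kept their direction.

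Just inside the limit of the rule were the U1 locus ENSRNOG00000056780.1, with 19.2 FPKM at P15, the U4atac locus ENSRNOG00000057270.1, with 26.4 at P10, and the U6atac locus ENSRNOG00000054887.1, with 28.3 at P5. Each of these rested on under 1 estimated alignment at that age. Just outside were 18 features listed at 0 at 1 age, among them ENSRNOG00000058060.1 (U4), ENSRNOG00000053488.1 (U6) and ENSRNOG00000056971.1 (U2), each listed at 0 at P15. In all, 41 features fell outside, 27 of them U6.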

How the data were processed

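Small RNAs of retina pools (3 retinas per age, 1 value per age) were read on an Ion Torrent PGM, mapped to Ensembl noncoding RNAs and quantified with Cufflinks and Cuffdiff 2.2.1.3 on Rnor_6.0, per the submitters' notes. The deposited values are FPKM. How reads matching several loci were counted, and the normalization option, are not given in the sources used here. The deposited table also holds the authors' fold changes, test statistics, p-values and q-values between ages, which were not used.

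All results came from the FPKM columns. A pseudocount of 1 was added before log2, and 2-fold differences from P21 were counted without a test. Low FPKM values lie on multiples of the value of 1 alignment, or of sums of 2 or 3 such steps (within 0.02 alignments at P1, where 99.4% of values under 200 alignments were whole). These gave estimated alignments per age, assuming that each step carries equal signal. The estimate is least sure at P15 (127508 to 774709) and P21 (91.0% of low values on steps). In simulated data of 5491 features with 200 changed between P1 and P21, 96.5% of the known differences lay in the 95% intervals. The simulation drew independent counts with equal signal per step, as the estimate itself assumes. It changed only features with at least 20 expected alignments in the smallest library, and held no shared reads or PCR copies. It therefore cannot show how well the intervals hold in the real data.

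Named by rule were the 3 members of each U type with the highest mean FPKM, 15 scaRNAs, the 3 largest differences between P1 and P21 in each direction among members with at least 20 mean alignments, and features at the limit of the rule. Loci named for other reasons were chosen after their values were seen. The members, lists and rules were chosen with earlier results of these data known. Alternatives covered scaling, pseudocount, low values, the summary over loci and feature length. Sequences came from RefSeq (GRCr8), all coordinates of members from the files. Python 3.11, numpy, pandas and matplotlib were used.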

Additional observations from a re-analysis of the deposited data

How the results depend on the processing

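The 14 log2 differences of summed FPKM and the 4 counts of members were recomputed under 10 alternatives, of which the restriction to near-full-length features was chosen after seeing the data. Of 172 values, 110 stayed within the counting interval (or within 1.5 times the count), 37 moved without a change of sign and 25 changed sign, 18 of these from a difference of at least 2-fold. The pseudocounts of 0.1 and 10 and the median-of-ratios scaling over miRNA features moved none. With the latter over all features, U5 was -3.46 at P1 and 1.01 at P3 and the minor U types -0.71 at P1. Scaled to the summed miRNA level, P1 against P21 gave 2.42 for U1, 2.19 for U2, -2.56 for U5, 1.73 for U6, 0.19 for the minor U types and -0.48 for the scaRNAs, and P3 gave 1.32, 1.66, 1.97, 0.40, 1.15 and 1.82, with 101 members higher and 20 lower at P3. In alignments per 1000000, U1 was -1.02 at P1 and -0.41 at P3, U2 -0.98 at P1, U4 0.0025 at P1 and 0.75 at P3, U5 -2.45 and 1.04, U6 -1.01 at P1, the minor U types 0.036 at P1 and the scaRNAs 0.36 and 0.62. With members of at least 20 mean alignments (102), U1 was -1.84 and -0.35, U2 -1.90 at P1, U4 0.99 at P3, U6 -1.57 at P1 and the minor U types -0.84 at P1, with 10 members higher at P1, and 26 higher and 18 lower at P3. Only 80 of these 102 members reached the limit without P21, the deepest library. The limit thus favours members high at P21, and these values cannot serve as an independent check of the P1 differences. The median of the single loci gave U1 -1.23 and -0.24, U2 -1.49 at P1, U4 0.88 at P3, U5 1.00 at P3, U6 -1.88 at P1 and scaRNA 0.22 at P3. The locus with the highest mean FPKM alone gave U1 5.67 and 3.32, U2 4.37 and 1.45, U5 -2.68 and 1.02 and scaRNA -4.00 and 1.29. Near-full-length features alone (129) gave U1 -1.83 and -0.30, U2 -1.74 at P1, U4 0.93 at P3, U6 -2.54 at P1, the minor U types -1.04 and the scaRNAs -1.78 at P1, with 10 members higher at P1, and 33 higher and 17 lower at P3. The limits on alignments and on length and the choice of 1 locus leave out features by construction, and in alignments per 1000000 a short feature has no more weight than its reads. U5 kept its sign at P1 and P3 under every alternative run, as U2, the minor U types and the scaRNAs did at P3. For U5 the limits on alignments and on length left out no member, so they could not move its values. No paired analysis was possible because each age has 1 value and the labels give no replicates. Depth limits the single loci most: 83 of 185 members had under 20 mean alignments.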

Other observations

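Of the 41 annotated features outside the rule, 22 were listed at 0 at P1, 17 at P10, 15 at P15, 14 at P3, 11 at P5, 5 at P7 and 4 at P21. The most sequenced of them were U6 copies with their highest level at P21. ENSRNOG00000055202.1 was listed at 0 at P1 and had 48.1 FPKM at P3 and 428 at P5, then 1635 at P7 and 37.6 at P10, and 907 at P15 and 3371 at P21. ENSRNOG00000059256.1 was listed at 0 at P1 and ran from 124 FPKM at P10 to 2122 at P21 at the other ages. Both were highest at P21, as were 18 of 47 U6 members. SCARNA8 (ENSRNOG00000052950.1), the scaRNA outside the rule, was listed at 0 at P1 and ran from 119 FPKM at P15 to 1285 at P21. The U4 feature ENSRNOG00000058060.1 was only 8 bases long, and its FPKM were 7530000 at P1 and 81046 at P21, with 0 listed at P15.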
